A study of Mus musculus with 17 samples.

Results

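MHCII+CD11c+ macrophages are a subset of the macrophages of the synovium, the membrane that lines joints, and carry MHC class II molecules and the integrin CD11c on their surface. Their response to immune complexes (IC) was read here from all bulk RNA-seq libraries of these cells in the series, 2 taken 8 h after IC and 3 from control mice, which is 5 of 17 libraries. The members are the 15272 genes that passed a filter on low counts of 22859 genes in the table, and the other 7587 genes were not tested. All mice, controls included, were adults labelled as knockouts of Fcgr2b, the gene of the inhibitory receptor for immunoglobulin G (IgG). IC were ovalbumin bound by rabbit antibodies against ovalbumin and were given into a vein. Cells were released from the synovium with collagenase and sorted. The gates were CD11c+MHCII+ for these cells, CD11c-MHCII+ for MHCII+CD11c- macrophages, and MHCII-Ly6C-LYVE1+CX3CR1+ for LYVE1+CX3CR1+ macrophages. Each of the latter subsets had 3 control and 3 IC libraries, which entered the fit below. The labels and methods do not say how many mice gave each of these libraries. The p-values therefore measure the spread between these libraries, which may in part be technical.

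Macrophages take up IC through activating Fc receptors, which signal through the common γ chain, Src and Syk family kinases, while FcγRIIB opposes that signal through the phosphatase SHIP1. Engulfed complexes are broken down by the proteases and hydrolases of lysosomes. Known responses of macrophages to IC include chemokines, and type I interferon acts on its target genes through transcription factors, IRF family members among them, that bind an interferon-stimulated response element.

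Libraries held between 2549315 and 5598198 counts in controls and 5736314 and 7045387 counts after IC. Levels are CPM, counts scaled to a common library total with TMM factors, which makes libraries comparable for a gene but not genes for each other, since gene length is not taken into account. Fold changes are log2 values of IC against control from edgeR's quasi-likelihood test, given ± SE, and a gene is called at an adjusted p under 0.05 over all genes tested. The IC pair had a Pearson correlation of 0.965 across genes, and pairs of controls had correlations between 0.8756 and 0.9197. Genes are not independent replicates. The 3 controls were thus less alike than the IC pair. Pairs of a control and an IC library had correlations between 0.8873 and 0.9503, no lower than pairs of controls. By this measure the IC libraries were therefore not a group apart from the controls. Chi-square per degree of freedom of the counts, lower where 2 libraries are more alike, gave another order. It was 10.31 for the IC pair and 12.07 for controls 1 and 3. Pairs of a control and an IC library had 18.05 to 34.68, and control 2 had 27.69 and 36.56 with the other controls. Library totals differed between these pairs, and their part in either measure was not tested.

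Itgax, which encodes CD11c, had 335, 434 and 275 CPM in the controls and 331 and 443 CPM after IC. MHCII+CD11c- controls had 12.9 ± 3.92 CPM and LYVE1+CX3CR1+ controls 1.43 ± 0.84 CPM of Itgax (SD, n = 3 each). H2-Eb1, the β chain of the MHC class II molecule I-E, had 4472, 2747 and 4217 CPM in the controls and 3837 and 4179 CPM after IC. Both label markers were thus present in each of the 5 libraries, and their IC and control values overlapped (0.15 ± 0.43 for Itgax and 0.07 ± 0.22 for H2-Eb1 on the log2 scale). Of 10 markers fixed for the sorted cells, 0 were called. Csf1r, the receptor that keeps macrophages alive, had 706, 714 and 669.8 CPM in the controls and 1181 and 1127 CPM after IC (0.73 ± 0.21, adjusted p = 0.280). Genes that mark dendritic cells were also present. Zbtb46, a transcription factor of classical dendritic cells, was measured at 44.5, 39.0 and 42.7 CPM in the controls and 39.4 and 49.7 CPM after IC, and the cytokine receptor gene Flt3 at 16.2 to 54.0 CPM over the 5 libraries. The cells are therefore called by their gate here, MHCII+CD11c+.

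The libraries differed in transcripts of other cells, in ways that moved with the treatment or with 1 library. Control 2 held 382 CPM of Lyve1 and 81.2 CPM of Vsig4, genes of lining macrophages, where controls 1 and 3 held 29.8 and 25.3 CPM of Lyve1 and 1.06 and 0 CPM of Vsig4. IC 1 and IC 2 held 303 and 137 CPM of Lyve1 and 99.9 and 16.7 CPM of Vsig4. The sum over 9 LYVE1-side marker genes lay between 1824 and 2295 CPM in controls and was 2610.0 and 2055 CPM after IC. It does not follow Lyve1 and Vsig4, because Mrc1 and Cd163 weigh most in it, with 1277 and 746 CPM in control 1. Both were higher in MHCII+CD11c- controls (means of 3245 and 1747 CPM) than in LYVE1+CX3CR1+ controls (2259 and 1210 CPM). The neutrophil gene S100a9 went the other way, with 143, 37.2 and 88.9 CPM in the controls and 0.294 and 0 CPM after IC. The sum over 11 blood monocyte and neutrophil markers was 650.3 to 1416 CPM in controls and 799.8 and 1048 CPM after IC. Of the mast cell genes, Cpa3 had 0 counts in each control and 1.62 and 7.88 CPM after IC, from 11 and 43 counts. It was not called (adjusted p = 0.618 by edgeR). With the controls set to a floor of 3 counts per library it was at least 6.13-fold higher, and at least 2.09-fold higher without IC 2. The sum over 8 mast cell and red cell markers was 1.70 to 10.97 CPM in controls and 10.3 and 36.8 CPM after IC. Sums of fibroblast and endothelial markers were 11.7 to 211 CPM in controls and 42.2 and 75.9 CPM after IC, with Col1a1 between 4.54 and 47.0 CPM over the 5 libraries. The 6 lymphocyte markers tested summed to between 1.49 and 7.56 CPM. In bulk samples, fewer cells of a type and less RNA per cell cannot be told apart, and the part of other cells in the results below was not tested beyond leaving out single libraries.

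**Figure D1:**
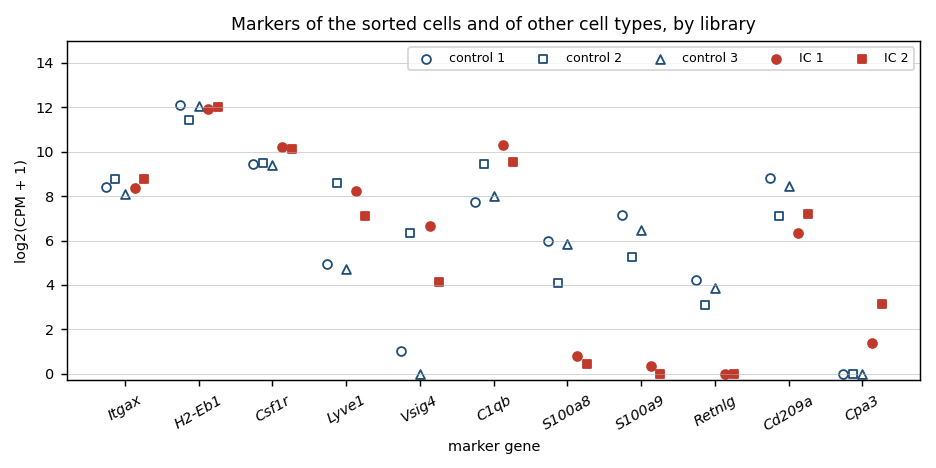
Levels of marker genes in the 5 MHCII+CD11c+ libraries, as log2(CPM + 1) on the vertical axis, with open symbols for the 3 controls and filled symbols for the 2 IC libraries. Itgax and H2-Eb1 were level over all libraries, Lyve1 and Vsig4 were highest in control 2 among the controls, and S100a8, S100a9 and Retnlg were seen in controls and were at or near 0 after IC.

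Fcgr2b, the knocked-out gene, had 248, 163 and 241 CPM in the controls and 132 and 118 CPM after IC. Reads were thus assigned to Fcgr2b in each library, and every IC value lay below every control value (-0.80 ± 0.30, adjusted p = 0.734, not called). Which part of the gene is missing was not given in the sources used here, so a count over the whole gene does not check the genotype, and Fcgr2b shares sequence with Fcgr3. MHCII+CD11c- macrophages had 138 CPM of Fcgr2b on average both in controls and after IC.

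The comparison of IC with control libraries called 33 genes, 0.216% of those tested, and all 33 rose. Their log2 fold changes ranged from 0.93 for Hmox1 to 2.76 for Gdf15 with a median of 1.45, and 31 of the 33 exceeded 1. Beside these, the median over all genes was 0.0149. They include lysosomal proteases (Lgmn, Ctsb, Ctsl), interferon-linked genes (Irf7, Ifit2, Ifi204, Ifi211, Slfn8), membrane proteins of the Ms4a family (Ms4a4a, Ms4a6c), genes induced by glucocorticoids (Fkbp5, Tsc22d3), the uptake receptor Timd4 and the transcription factor Maf. Of the genes lower after IC, edgeR called 0. At an unadjusted p under 0.05, 566 genes were higher (3.71%) and 229 were lower (1.5%). These are 795 genes, where 764 are expected with no effect. DESeq2 called 62 higher and 9 lower. In all 33 called genes both IC libraries lay above the 3 controls, as they did in 2151 of the genes tested (14.1%). In 1377 genes (9.02%) both lay below.

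The calls rested on few libraries. Without IC 1, 0 genes were called. Without IC 2, 15 of the 33 remained, among them Ninj1, Lgmn, Ctsb, Ms4a4a, Maf, Fkbp5, Timd4, Tsc22d3 and Irf7. Without control 1, only Ninj1, Lgmn, Cacna1d and Fyb remained, and without control 3, Ninj1 and Irf7. Without control 2, the library with the most LYVE1-side transcripts among controls, 104 genes were called, of which 101 were higher. Of the 33, 27 were among them, and those lost included Ifit2, Hmox1, Slfn8, Cd93 and Ms4a6c. Lyve1 itself was among the genes called without control 2 (2.99, adjusted p = 0.000301 by edgeR), and the median log2 fold change of the 9 LYVE1-side markers was then 1.39, beside 0.426 with all libraries. Control 2 was the highest control in 21 of the 33 genes. With only the 5 libraries of these cells in the fit, 13049 genes were tested, 0 were called and 716 had p under 0.05. The cause of the lost calls was not tested. In that fit, Ninj1 had an adjusted p of 0.217, the highest over its 17 alternatives, and it was called in 15 of them.

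**Figure D2:**
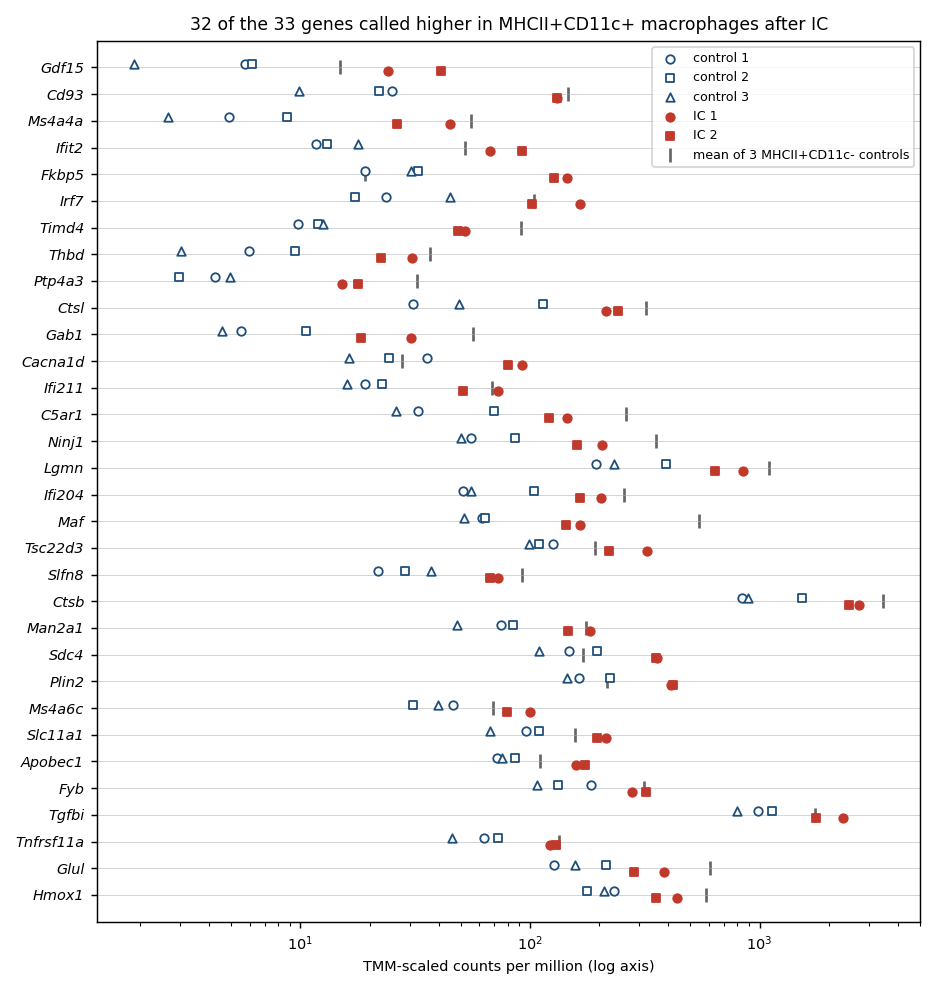
The 32 called genes described here, of 33, with CPM of each library on a log axis, open blue symbols for the 3 controls and filled red symbols for the 2 IC libraries, and a grey bar for the mean of the 3 MHCII+CD11c- controls. In each gene both IC libraries lay to the right of the 3 controls, and for Maf the MHCII+CD11c- controls lay further to the right, at 547 CPM.

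Genes that answer type I interferon were the list with the most members below an unadjusted p of 0.05. Of 24 genes in the list, 23 were tested, 22 had a log2 fold change above 0, and 15 were higher at p under 0.05, with 0 lower. IC and control libraries did not overlap in 18 of them. Over all genes tested, 3.71% were higher at p under 0.05, and 14.1% were higher after IC with no overlap. A log2 fold change above 0 was found in 7797 of 15272 genes. These shares, with 1.5% lower at p under 0.05 and 0.216% called, also stand behind the list counts below. Irf7 and Ifit2 were called, and DESeq2 called 5 members. The median log2 fold change of the list was 1.21, between 0.826 without IC 1 and 1.56 without IC 2. Summed over the 23 genes, CPM were 798, 589.6 and 972 in the controls and 1669 and 1495 after IC.

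Genes of this kind are shown with the DNA upstream of their start, because the core of the interferon-stimulated response element, TTTC followed after any 2 bases by TTTC, was found there. It was searched on both strands in the 250 bases before each RefSeq start, and capitals mark it. Slfn8 and Ifi211 were called, and Ifit3 and Rsad2 had some of the highest fold changes of the interferon list. Ifit3 has 2 matches and Rsad2 has 1, 120 bases before the start. Slfn8 and Ifi211 have 1 each, 48 and 37 bases before it, and in Ifi211 the match is on the opposite strand. Windows are from RefSeq on GRCm38.p6, 5′ to 3′ on the strand of the gene: Slfn8 at chr11:83020811-83021060 (minus), Ifi211 at chr1:173913047-173913296 (minus), Ifit3 at chr19:34583279-34583528 (plus) and Rsad2 at chr12:26456453-26456702 (minus).
Slfn8: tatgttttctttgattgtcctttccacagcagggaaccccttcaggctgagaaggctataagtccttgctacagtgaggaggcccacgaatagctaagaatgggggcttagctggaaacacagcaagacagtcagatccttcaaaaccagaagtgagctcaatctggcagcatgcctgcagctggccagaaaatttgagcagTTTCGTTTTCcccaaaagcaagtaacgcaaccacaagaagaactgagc
Ifi211: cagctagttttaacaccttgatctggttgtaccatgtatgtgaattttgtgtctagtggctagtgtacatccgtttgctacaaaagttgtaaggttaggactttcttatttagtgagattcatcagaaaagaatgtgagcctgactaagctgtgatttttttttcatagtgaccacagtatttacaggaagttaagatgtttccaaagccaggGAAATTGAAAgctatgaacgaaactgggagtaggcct
Ifit3: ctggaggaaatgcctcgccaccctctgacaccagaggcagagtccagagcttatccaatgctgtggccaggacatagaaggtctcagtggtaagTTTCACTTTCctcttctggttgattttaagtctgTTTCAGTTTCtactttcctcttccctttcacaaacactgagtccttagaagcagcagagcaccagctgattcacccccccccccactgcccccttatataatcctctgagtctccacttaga
Rsad2: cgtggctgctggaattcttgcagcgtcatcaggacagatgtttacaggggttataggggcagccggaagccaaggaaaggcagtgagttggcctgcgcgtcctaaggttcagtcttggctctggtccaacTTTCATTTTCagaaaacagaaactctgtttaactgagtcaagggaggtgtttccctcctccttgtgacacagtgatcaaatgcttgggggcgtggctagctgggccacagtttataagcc

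The motif was present for 348 of the 10441 tested genes that had a window (3.33%). In the interferon list it was present for 8 of 17 (47.1%), namely Bst2, Ifit1, Ifit3, Isg15, Oas1a, Oas3, Rsad2 and Stat2. The called members of that list, Irf7 and Ifit2, were not among these 8, for want of a match or of a window. Of the 25 called genes with a window the motif was present for 4 (16.0%), which were Glul, Ifi211, Slfn8 and Tgfbi. The letters CACGTG, a motif of lysosomal gene promoters that overlaps none of the former, were present for 1026 of the 10441 genes (9.83%) and for 5 of 12 lysosomal protease genes (41.7%), among them Ctsl and Lgmn. They were present for 0 of 17 interferon genes and for 5 of 14 glucocorticoid-induced genes (35.7%), among them Fkbp5. In the GENCODE annotation the windows of Lgmn and Ctsl, 250 bases each, lie wholly inside these genes, which have a start further upstream there. These are matches of letters in a short window and say nothing of binding.

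Irf7 (chr7:141262706-141266481, minus strand, GENCODE M21 on GRCm38), the factor that amplifies interferon production, had 23.6, 17.3 and 44.6 CPM in the controls and 166 and 102 CPM after IC. It rose by 2.26 ± 0.40 (adjusted p = 0.0244). Both IC libraries were well above the highest control. Ifit2, an interferon-induced protein with tetratricopeptide repeats, had 11.7, 13.0 and 17.8 CPM in controls and 66.7 and 92.5 CPM after IC, a rise of 2.50 ± 0.47 (adjusted p = 0.0290). Its neighbour on chromosome 19, Ifit3, had 14.9, 4.09 and 15.9 CPM in controls and 56.9 and 65.4 CPM after IC (2.43 ± 0.59, adjusted p = 0.206). Rsad2, which encodes the antiviral enzyme viperin, had 16.4, 5.94 and 10.6 CPM in controls and 81.4 and 115 CPM after IC (3.17 ± 0.87, adjusted p = 0.411). The groups were thus apart in Ifit3 and Rsad2 as well, but edgeR called neither, while DESeq2 called Ifit3 and voom called Rsad2. Ifit1 differed by 1.93 ± 0.48 (adjusted p = 0.141), Oasl2 by 1.68 ± 0.36 (adjusted p = 0.0733) and Xaf1 by 1.99 ± 0.45 (adjusted p = 0.0722). Isg15, the ubiquitin-like product of the same programme, had 20.4, 12.6 and 34.0 CPM in controls and 41.6 and 34.1 CPM after IC, so that control 3 and IC 2 nearly met.

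The DNA-sensing p200 family and the schlafens lie outside the list. Ifi204 had 51.3, 105 and 55.6 CPM in controls and 205 and 165 CPM after IC (rise of 1.39 ± 0.26, adjusted p = 0.0244). Ifi211 had 19.1, 22.7 and 15.9 CPM in controls and 72.7 and 51.3 CPM after IC (1.68 ± 0.35, adjusted p = 0.0395). Slfn8 had 21.7, 28.6 and 37.1 CPM in controls and 72.7 and 67.2 CPM after IC (1.27 ± 0.27, adjusted p = 0.0395). All 3 thus rose with no overlap. The Ifi200, Ifit, schlafen and Ms4a families hold near copies, and how reads that fit several copies were counted was not given in the sources used here, so the shares between copies are uncertain.

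Of 16 lysosomal proteases and their inhibitors tested, Lgmn, Ctsb and Ctsl were called, 8 were higher and 0 lower at p under 0.05, and the median was 0.478. Lgmn (chr12:102394084-102439813, minus strand), which encodes legumain, an asparagine-specific protease, had 194, 389.7 and 233 CPM in controls and 844 and 642 CPM after IC, a rise of 1.45 ± 0.22 (adjusted p = 0.00578). Ctsb (chr14:63122462-63145923, plus strand), the cysteine protease cathepsin B, had 841, 1533 and 887 CPM in controls and 2712 and 2464 CPM after IC, a rise of 1.25 ± 0.20 (adjusted p = 0.00965). Ctsl (chr13:64359337-64370890, minus strand), cathepsin L, had 30.8, 114 and 49.2 CPM in controls and 214 and 241 CPM after IC, a rise of 1.81 ± 0.35 (adjusted p = 0.0391). In each of these genes control 2 was the highest control, and every IC value was still above it. LYVE1+CX3CR1+ controls held 1538 ± 161 CPM of Lgmn and 3785 ± 466 CPM of Ctsb (SD, n = 3), above both IC libraries of MHCII+CD11c+ macrophages, and the part of LYVE1-side cells in these rises was not tested. Ctsd, an aspartic protease, differed by 0.83 ± 0.30 (adjusted p = 0.734) and Ctsc, which activates serine proteases, by 0.56 ± 0.22 (adjusted p = 0.764).

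Of 28 lysosomal hydrolases, membrane proteins and pump subunits, 26 had a log2 fold change above 0 (median 0.331), 6 were higher at p under 0.05 and 0 were called. Grn, the precursor of granulins that act in lysosomes, had 623, 699.6 and 492 CPM in controls and 1198 and 901 CPM after IC (0.80 ± 0.20, adjusted p = 0.146). Lamp1, a main glycoprotein of the lysosome membrane, had 393, 509 and 421 CPM in controls and 674 and 640.0 CPM after IC (0.57 ± 0.17, adjusted p = 0.304). These were smaller differences than those of the called proteases, and neither gene overlapped between groups.

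**Figure D3:**
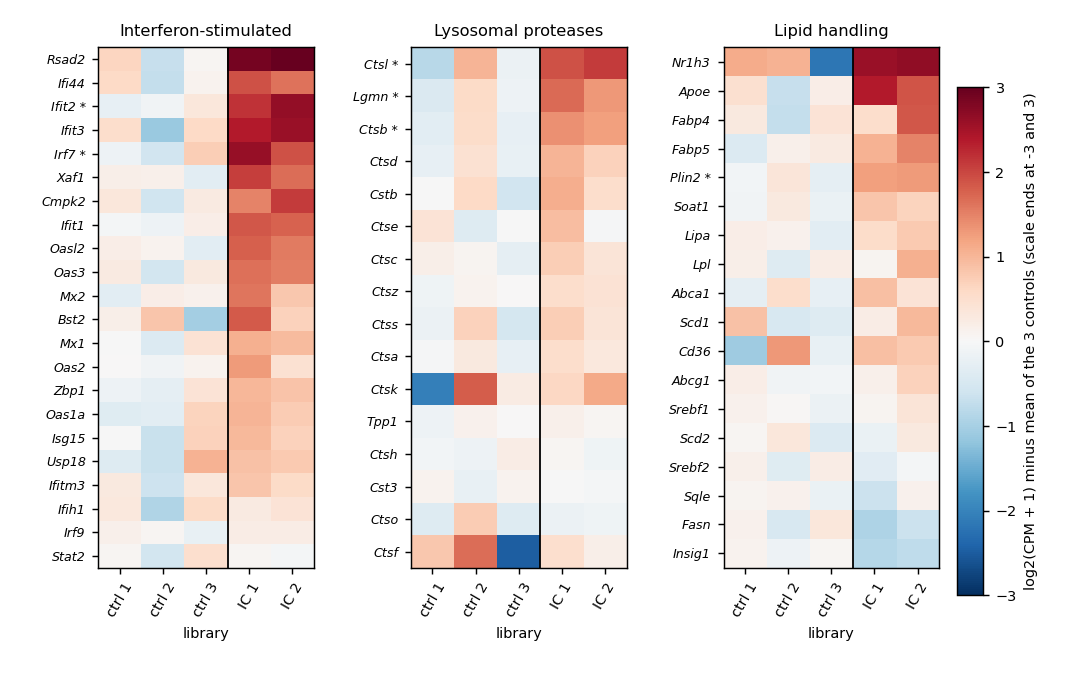
Members of the interferon, lysosomal protease and lipid handling lists in the 5 MHCII+CD11c+ libraries, coloured by log2(CPM + 1) minus the mean of the 3 controls (colours end at -3 and 3), with an asterisk on called genes. Red fills the IC columns for most interferon genes, control 2 is red for Ctsl, and Insig1 and Fasn are blue in the IC columns.

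Ninj1 (chr13:49187485-49196244, plus strand) had the smallest p of all genes. It encodes ninjurin 1, a membrane protein that ruptures the plasma membrane of dying cells. Its levels were 55.3, 85.8 and 49.9 CPM in controls and 205 and 161 CPM after IC, a rise of 1.52 ± 0.22 (95% interval 1.06 to 1.98, adjusted p = 0.00578). It was the 1 called member of 16 tested genes of membrane rupture, gasdermins and inflammasomes (median 0.146, and 0.0492 without control 3). Of 28 adhesion and migration genes, Ninj1, Sdc4 and Cd93 were called (median 0.323, between 0.191 without control 3 and 0.644 without control 2). The proteoglycan gene Sdc4 had 147, 196 and 109.7 CPM in controls and 356 and 354 CPM after IC (1.23 ± 0.23, adjusted p = 0.0244). Cd93, a membrane glycoprotein, had 25.1, 21.9 and 9.83 CPM in controls and 131 CPM in each IC library (2.76 ± 0.50, adjusted p = 0.0411).

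Of 10 genes of the Ms4a family of membrane proteins tested, Ms4a4a and Ms4a6c rose, 5 were higher and 0 lower at p under 0.05, and the median was 1.36. Ms4a4a (chr19:11375523-11392790, plus strand), a tetraspan protein of macrophages, had 4.89, 8.73 and 2.65 CPM in controls and 45.0 and 26.4 CPM after IC, a rise of 2.64 ± 0.41 (adjusted p = 0.00965). Ms4a6c had 46.4, 31.0 and 39.7 CPM in controls and 99.8 and 79.3 CPM after IC (1.20 ± 0.26, adjusted p = 0.0444). The groups were apart in both genes. Their neighbours Ms4a6b (2.92 ± 0.68, adjusted p = 0.206), Ms4a6d (1.53 ± 0.39, adjusted p = 0.223) and Ms4a4c (1.98 ± 0.57, adjusted p = 0.290) were not called. DESeq2 called 5 members.

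Maf (chr8:115682942-115707794, minus strand), a transcription factor of tissue macrophages, had 61.9, 63.5 and 51.4 CPM in controls and 165 and 143 CPM after IC, a rise of 1.38 ± 0.23 (adjusted p = 0.00965). It was the 1 called member of 24 tested macrophage and dendritic cell transcription factors. Irf4, a factor of dendritic cells, had 269, 329 and 312 CPM in controls and 163 and 224 CPM after IC (-0.65 ± 0.26, adjusted p = 0.764). Maf was thus higher in each IC library than in any control and Irf4 was lower, and of this pair only Maf passed the test.

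Receptors for dying cells and complement had 1 called gene each. Timd4 (chr11:46810800-46844332, plus strand), a receptor for phosphatidylserine, had 9.78, 11.9 and 12.5 CPM in controls and 52.2 and 48.6 CPM after IC, a rise of 2.15 ± 0.36 (adjusted p = 0.0113). Timd4 is also 1 of the 9 LYVE1-side markers, and the only one of them that edgeR called with all libraries. The part of LYVE1-side cells in its rise was not tested. Of 20 uptake genes tested, 5 were higher and 1 lower at p under 0.05 (median 0.445, and 0.242 without IC 1). The kinase receptors Axl (0.79 ± 0.22, adjusted p = 0.227) and Mertk (1.17 ± 0.37, adjusted p = 0.465) were not called, and for Mertk control 2 at 55.5 CPM exceeded IC 2 at 52.0 CPM. C5ar1, the receptor of the complement fragment C5a, had 32.5, 70.0 and 26.1 CPM in controls and 145 and 121 CPM after IC, a rise of 1.62 ± 0.30 (adjusted p = 0.0270). Of 18 complement genes tested, 4 were higher at p under 0.05 (median 0.852, and 0.152 without IC 1). C1qb, a chain of the recognition molecule C1q, had 215, 698 and 254 CPM in controls and 1256 and 736 CPM after IC (1.36 ± 0.38, adjusted p = 0.358). It was called by DESeq2, by voom and without control 2. Itgam, a chain of complement receptor 3, differed by 0.80 ± 0.20 (adjusted p = 0.151).

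Fkbp5 (chr17:28399094-28517527, minus strand), a co-chaperone of the glucocorticoid receptor, had 19.1, 32.5 and 30.3 CPM in controls and 145 and 127 CPM after IC, a rise of 2.32 ± 0.36 (adjusted p = 0.00965). Tsc22d3, which encodes the glucocorticoid-induced leucine zipper GILZ, had 125, 109 and 99.5 CPM in controls and 323 and 219.9 CPM after IC, a rise of 1.28 ± 0.22 (adjusted p = 0.0113). These were the 2 called of 17 tested glucocorticoid-induced genes (median 0.297, with 4 higher and 0 lower at p under 0.05). Per1, another glucocorticoid target and a clock gene, overlapped between the groups (0.30 ± 0.20). Of 17 clock genes tested, 0 were called and 5 were higher at p under 0.05. Per2 had 27.2, 29.4 and 14.4 CPM in controls and 72.1 and 49.8 CPM after IC (1.35 ± 0.30, adjusted p = 0.0615). Cry2 differed by 1.37 ± 0.35 (adjusted p = 0.166), Tef by 1.05 ± 0.30 (adjusted p = 0.287) and Cry1 by 0.90 ± 0.35 (adjusted p = 0.737).

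Lipid handling genes moved in both directions at p under 0.05, with 6 of 20 higher, 4 lower and Plin2 called. Plin2, which coats lipid droplets, had 163, 223 and 145 CPM in controls and 411 and 421 CPM after IC, a rise of 1.23 ± 0.24 (adjusted p = 0.0290). The lipoprotein gene Apoe had 810.4, 362 and 674 CPM in controls and 3058 and 2166 CPM after IC (2.09 ± 0.49, adjusted p = 0.226). It was called by DESeq2, by voom and without the robust option. The cholesterol exporter Abca1 differed by 0.63 ± 0.23 (adjusted p = 0.719), with control 2 at 377 CPM above IC 2 at 346 CPM. Among the lower genes were targets of the sterol-sensing factors SREBP. Insig1, which holds SREBP back in the endoplasmic reticulum, had 161, 133 and 155 CPM in controls and 81.5 and 87.4 CPM after IC (-0.82 ± 0.24, adjusted p = 0.333). Fasn, the fatty acid synthase, had 202, 131 and 233 CPM in controls and 96.7 and 117 CPM after IC (-0.82 ± 0.26, adjusted p = 0.443). In both genes the IC libraries lay below the 3 controls, and edgeR called neither, while voom called Insig1.

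Of 7 Fc receptor genes tested, edgeR called 0 and DESeq2 called 1, Fcgr1. By edgeR's unadjusted p, Fcgr1 and Fcer1g were higher and Fcgr2b was lower at p under 0.05. Fcgr1, the high-affinity IgG receptor, had 17.02, 19.9 and 0.756 CPM in controls and 108 and 91.3 CPM after IC, a fitted difference of 2.91 ± 0.61 (adjusted p = 0.116). It was also called by voom, with surrogate variables, without the robust option and without control 3. Every IC value was far above the highest control, and control 3 held 2 counts. Fcer1g, the common γ chain, had 229, 172 and 246 CPM in controls and 273 and 320.3 CPM after IC (0.46 ± 0.20, adjusted p = 0.839). Of 12 genes that signal downstream, 1 was called and 4 were higher at p under 0.05. Inpp5d, which encodes SHIP1, differed by 0.69 ± 0.18 (adjusted p = 0.206) and the exchange factor Vav1 by 0.59 ± 0.17 (adjusted p = 0.333). The median of these 12 genes was 0.207, and 0.11 without control 2.

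Of 23 chemokine genes tested, 21 had a log2 fold change above 0 (median 1.02). At p under 0.05, 8 were higher and 0 lower, and edgeR called 0. DESeq2 called 1, Ccl8, and voom called 2, Cxcl1 and Cxcl3, both higher. Ccl24, a chemokine that draws eosinophils, had 34.2, 45.7 and 50.7 CPM in controls and 95.5 and 119 CPM after IC (1.30 ± 0.36, adjusted p = 0.289). Ccl9 had 1155, 1151 and 1184 CPM in controls and 1839 and 1979 CPM after IC (0.71 ± 0.26, adjusted p = 0.719). Ccl3 differed by 1.10 ± 0.32 (adjusted p = 0.347). Ccl8 had 4.89, 11.3 and 9.45 CPM in controls and 58.3 and 18.0 CPM after IC (2.16 ± 0.56, adjusted p = 0.271). Others differed mainly in 1 IC library. Ccl22, a product of mature dendritic cells, had 107, 36.6 and 55.6 CPM in controls and 98.4 and 463 CPM after IC, so IC 1 lay within the controls. Cxcl13, which draws B cells, had 0 counts in each control and 75 and 2 counts after IC.

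Of 15 inflammatory cytokines and antagonists tested, 0 were called, with a median of -0.01, which was 0.793 without control 2 and -0.267 after thinning all libraries to the smallest total. The 1 gene with p under 0.05 was Il10, the anti-inflammatory cytokine, with 32.3, 11.5 and 22.3 CPM in controls and 52.0 and 56.4 CPM after IC (1.30 ± 0.47, adjusted p = 0.719). Tnf had 199, 288 and 222 CPM in controls and 267 and 202 CPM after IC, and its difference was -0.01 ± 0.26 with a 95% interval from -0.55 to 0.53. Il6 had 154, 144 and 239 CPM in controls and 81.8 and 103 CPM after IC (-0.95 ± 0.61). A difference of Tnf beyond 1 log2 unit therefore lay outside its interval, whereas for Il6 the interval ran from -2.26 to 0.36. Gdf15, a stress cytokine of the TGF-β family outside this list, had 5.74, 6.13 and 1.89 CPM in controls and 24.1 and 40.9 CPM after IC, a rise of 2.76 ± 0.58 (adjusted p = 0.0395).

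MHC class II genes did not pass the test in either direction. Of 11 tested, 0 had p under 0.05, and the median was -0.112, between -0.338 without control 2 and 0.0621 without control 1. H2-Ab1, a β chain of I-A, had 9804, 6076 and 8856 CPM in controls and 7263 and 7989.8 CPM after IC (-0.11 ± 0.30, with a 95% interval from -0.74 to 0.51). Of 12 costimulation and maturation genes, 0 were called and 2 were higher at p under 0.05 (median 0.276, and 0.0428 without control 1). Of 13 dendritic cell markers, 0 were called (median 0.0814). Cd209a, a lectin of monocyte-derived dendritic cells, had 452, 135 and 351 CPM in controls and 80.1 and 146 CPM after IC (-1.47 ± 0.57, adjusted p = 0.820), and control 2 lay below IC 2. Voom called 3 of these markers, with Cd209a lower and Ccr7 and Kit higher.

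Among iron and heme genes, 2 of 15 were called (median 0.202, between 0.0347 without IC 1 and 0.557 without control 2). Hmox1, which degrades heme, had 232, 178 and 211 CPM in controls and 435 and 355 CPM after IC (0.93 ± 0.19, adjusted p = 0.0352). Slc11a1, a metal exporter of the phagosome, had 96.6, 110.0 and 66.9 CPM in controls and 214 and 196 CPM after IC (1.17 ± 0.24, adjusted p = 0.0395). The ferritin chains differed by 0.65 ± 0.16 for Fth1 (adjusted p = 0.139) and 0.55 ± 0.21 for Ftl1 (adjusted p = 0.737). Of 14 heat shock genes, 0 were called and 4 were higher at p under 0.05, among them the near-identical pair Hspa1a (0.81 ± 0.20, adjusted p = 0.147) and Hspa1b (0.89 ± 0.22, adjusted p = 0.146). Both genes were higher in each IC library than in any control. The 19 immediate early genes had 3 members higher and 3 lower at p under 0.05 and 0 called (median 0.1, and -0.0251 without IC 2). Matrix proteases had 3 of 17 higher and 3 lower at p under 0.05, with 0 called, and 16 cell cycle genes had 0 with p under 0.05. The 4 receptor genes for the neuropeptide CGRP had 0 with p under 0.05.

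The other 10 called genes belong to no group above. The cytidine deaminase gene Apobec1 had 72.1, 85.8 and 75.3 CPM in controls and 159 and 174 CPM after IC, a rise of 1.09 ± 0.19 (adjusted p = 0.0113). Thbd, which encodes thrombomodulin, a brake on clotting, had 5.96, 9.47 and 3.03 CPM in controls and 30.7 and 22.5 CPM after IC (2.05 ± 0.41, adjusted p = 0.0290). Tnfrsf11a, the receptor RANK of the osteoclast pathway, had 63.0, 72.4 and 45.8 CPM in controls and 122 and 129 CPM after IC (1.05 ± 0.21, adjusted p = 0.0290). Cacna1d, a subunit of voltage-gated calcium channels, had 35.5, 24.3 and 16.3 CPM in controls and 92.4 and 80.4 CPM after IC (1.75 ± 0.32, adjusted p = 0.0191). No control reached an IC value in these genes. The others were the adaptors Fyb (1.08 ± 0.20) and Gab1 (1.78 ± 0.35), the phosphatase Ptp4a3 (2.04 ± 0.39), the Golgi mannosidase Man2a1 (1.25 ± 0.23), the matrix protein Tgfbi (1.07 ± 0.21) and the glutamine synthetase Glul (0.997 ± 0.20). Their adjusted p-values lay between 0.0191 and 0.0290.

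**Figure D4:**
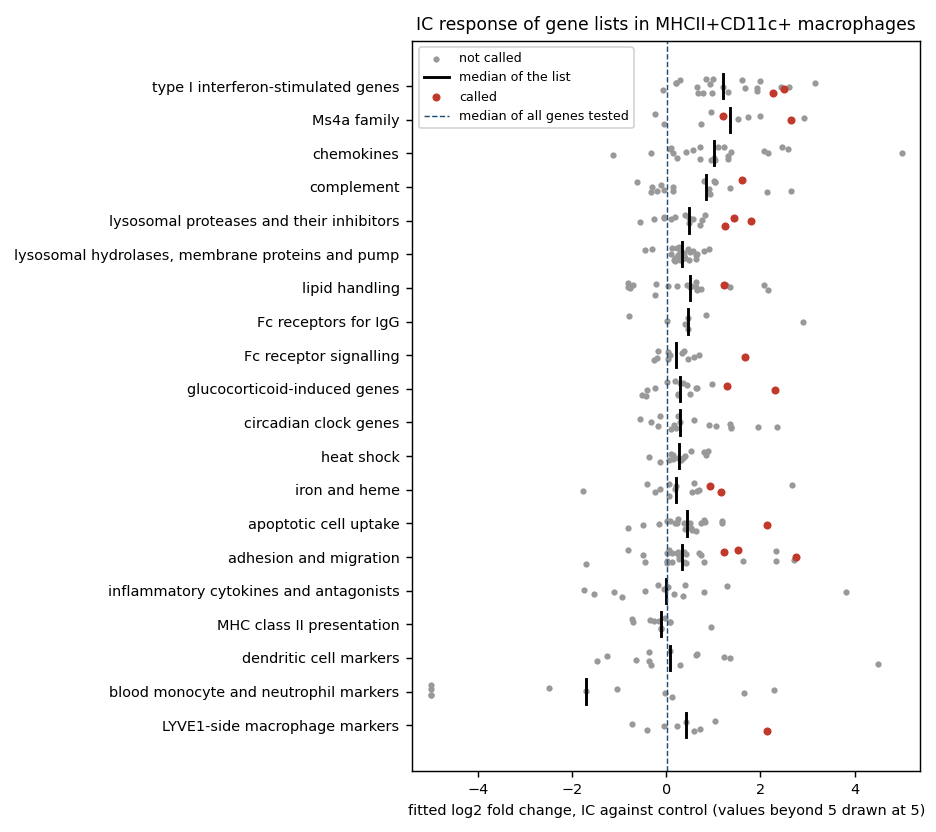
Fitted log2 fold changes of IC against control for tested members of 20 gene lists, 1 point a gene (values beyond 5 drawn at 5), called genes in red, a black bar for the median of a list and a dashed line for the median of all genes tested, 0.0149. The Ms4a, interferon and chemokine lists have medians of 1.36, 1.21 and 1.02, and most of their points are not called.

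The 10 lower genes with the smallest p and no overlap were 5 at or near 0 after IC, which were neutrophil genes and Serpinf2, and 5 that were well measured in both groups. Zbtb20, a zinc-finger repressor, had 74.2, 60.9 and 72.2 CPM in controls and 37.9 and 32.1 CPM after IC (-0.98 ± 0.23, adjusted p = 0.0942). Utrn, which encodes utrophin, had 479.6, 259 and 436 CPM in controls and 205 and 195 CPM after IC (-0.97 ± 0.25, adjusted p = 0.186). Syne2, a protein of the nuclear envelope, had 158, 129.8 and 148 CPM in controls and 93.4 and 84.5 CPM after IC (-0.71 ± 0.21, adjusted p = 0.310). The groups were apart in these 3 genes, and edgeR called 0 of them, while DESeq2 and voom called all 3 lower. With Insig1 above, the uncharacterised gene Gm55594 completes the well-measured ones, with 54.4, 65.4 and 52.6 CPM in controls and 19.2 and 25.3 CPM after IC (-1.37 ± 0.43, adjusted p = 0.432).

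Neutrophil transcripts were seen in the controls and were at or near 0 after IC. Ngp, a neutrophil granule protein, had 181, 11.9 and 81.7 CPM in controls and 0 counts in both IC libraries, at least 185.0-fold lower against the floor of 3 counts per library and at least 94.7-fold lower without control 1. Camp, the antimicrobial cathelicidin, had 30.4, 3.16 and 3.40 CPM in controls and 0 counts after IC, at least 24.9-fold lower, a bound that was 6.64 without control 1. S100a8, a chain of calprotectin, had 62.3, 16.0 and 56.0 CPM in controls and 0.735 and 0.366 CPM after IC, and Mmp8, the neutrophil collagenase, had 21.5, 2.79 and 12.9 CPM in controls and 0.147 and 0 CPM after IC. Their adjusted p-values by edgeR were 0.290 for Ngp, 0.289 for Camp, 0.252 for S100a8 and 0.363 for Mmp8, and the 3 controls differed widely among themselves. Serpinf2, an inhibitor of plasmin, had 2.55, 2.79 and 2.27 CPM in controls and 0 counts after IC, at least 5.13-fold lower (adjusted p = 0.289). DESeq2 called Ngp, Camp, S100a8 and Serpinf2 lower, and voom called Camp, S100a8 and Mmp8. Whether these transcripts came from neutrophils within the gate or from the RNA of other cells was not tested.

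The same test was run in the other subsets, whose libraries are their own controls and IC libraries. In MHCII+CD11c- macrophages 107 genes were called (0.701%), and in LYVE1+CX3CR1+ macrophages 147 (0.963%). Of the 33 genes, 10 were also called higher in MHCII+CD11c- macrophages, which were Ms4a4a, Fkbp5, Apobec1, Tsc22d3, Man2a1, Cacna1d, Sdc4, Plin2, Hmox1 and Ms4a6c. In LYVE1+CX3CR1+ macrophages 3 were called higher, which were Fkbp5, Tsc22d3 and Ms4a6c. The 33 genes had a log2 fold change above 0 in 31 cases in MHCII+CD11c- macrophages, against 47.8% of all genes, with a median of 0.828. In LYVE1+CX3CR1+ macrophages 25 were above 0, against 40.3% of all genes, with a median of 0.172.

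Whether the response differed between subsets was tested as the difference of their IC responses, which uses the same MHCII+CD11c+ libraries that chose the 33 genes. In the difference of IC responses between MHCII+CD11c+ and MHCII+CD11c- macrophages edgeR called 0 of all genes (0%), with 496 at an unadjusted p under 0.05, 16 of the 33 among them. With no effect, 764 of all genes are expected at that p in each difference. DESeq2 called 2, Ptp4a3 and Map3k6, and without MHCII+CD11c+ control 2 edgeR called 21, Lgmn, Ctsb, Ctsl and Gab1 among them. Against LYVE1+CX3CR1+ macrophages edgeR called 5 genes (0.0327%), 0 of the 33 among them, and 1225 genes had p under 0.05, 27 of the 33 among them. DESeq2 called 44 in that difference, with Slfn8, Ctsl, Gab1, Maf, Tnfrsf11a and Cd93 of the 33. Without MHCII+CD11c+ control 2 edgeR called 56, Maf, Slfn8, Lgmn, Ctsb and Ctsl among them. Fkbp5 rose by 3.61 ± 0.36 in MHCII+CD11c- macrophages (adjusted p = 6.32e-05) and by 3.40 ± 0.36 in LYVE1+CX3CR1+ macrophages (adjusted p = 8.48e-05), beside 2.32 ± 0.36 in MHCII+CD11c+ macrophages. Maf showed the reverse order, with 0.29 ± 0.20 in MHCII+CD11c- and -0.20 ± 0.20 in LYVE1+CX3CR1+ macrophages, and its difference from the latter of 1.58 ± 0.31 had an adjusted p of 0.0594. The difference of Slfn8 from LYVE1+CX3CR1+ macrophages was 1.92 ± 0.36 (adjusted p = 0.0541). In the main edgeR fit neither gene passed the threshold. Both passed it in edgeR fits of all libraries with no filter on low counts, with a replicate block and with a replicate block within treatment.

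Levels in the other subsets give the scale of these rises. Maf had 547 ± 212 CPM in MHCII+CD11c- controls and 688 ± 29.3 CPM in LYVE1+CX3CR1+ controls (SD, n = 3 each), above the 165 and 143 CPM of MHCII+CD11c+ macrophages after IC. Timd4 had 91.5 ± 51.9 and 158 ± 24.4 CPM in the same control groups, above 52.2 and 48.6 CPM. Ninj1 had 354 ± 86.2 and 386 ± 14.9 CPM, above 205 and 161 CPM. Fkbp5 was different, with 19.0 ± 7.42 and 15.4 ± 7.72 CPM in these controls, below the 145 and 127 CPM after IC. Irf7 had 105 ± 40.3 CPM in MHCII+CD11c- controls and 47.3 ± 6.71 CPM in LYVE1+CX3CR1+ controls. In the interferon list the median log2 fold change was 1.21 in MHCII+CD11c+, 0.989 in MHCII+CD11c- and 0.0086 in LYVE1+CX3CR1+ macrophages. In the glucocorticoid list it was 0.297, 0.877 and 0.847, with 2, 5 and 4 genes called. In the MHC class II list it was -0.112, -0.951 and -1.5, with 0, 1 and 3 genes called lower. These medians were not tested against each other.

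**Figure D5:**
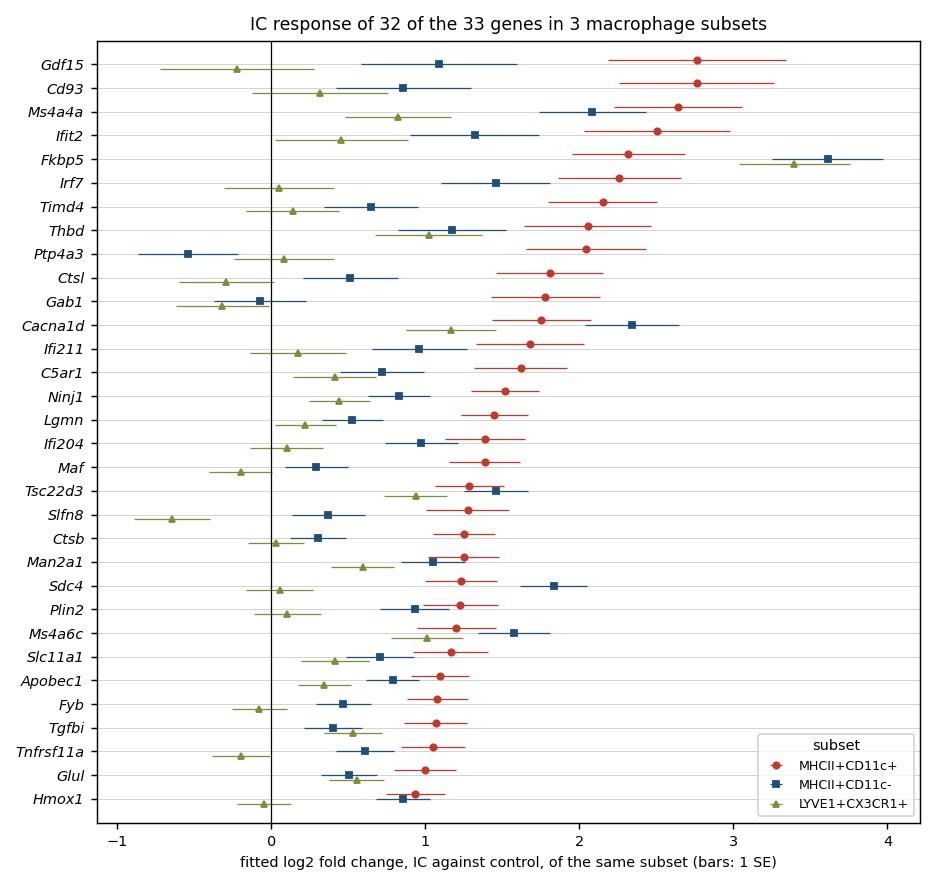
Fitted log2 fold changes of IC against control (points, with bars of 1 SE) of 32 of the 33 genes in MHCII+CD11c+ (red circles), MHCII+CD11c- (blue squares) and LYVE1+CX3CR1+ macrophages (green triangles), each against controls of the same subset. Fkbp5 reached 3.61 in MHCII+CD11c- and 3.40 in LYVE1+CX3CR1+ macrophages, while Ptp4a3 and Gab1 did not exceed 0 in MHCII+CD11c- macrophages.

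The study named 4 genes as shared by MHCII+ macrophages after IC, and Irf7, Fcgr1, Mmp19 and Cxcl13 all had p under 0.05 and no overlap here, with Irf7 called. For Cxcl13 the lack of overlap rests on 2 counts in IC 2, below the floor of 3 counts. Its fold bound without IC 1 was 0.473, which bounds no rise. The 4 genes may have been picked on these samples, so their direction is not independent evidence. Mmp19, a matrix metalloproteinase, had 185, 259.9 and 152 CPM in controls and 448 and 481 CPM after IC (1.22 ± 0.53, adjusted p = 0.907). Voom called it.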

How the data were processed

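The deposited values are raw counts of reads for each gene symbol, with no normalization. Per the labels and methods, the authors put 5 ng of RNA into a strand-specific pico-input kit, sequenced both ends, trimmed the first 3 bases of read 1, and used Trim Galore, FastQC, HISAT2 (mm10) and featureCounts. They tested with DESeq2 and removed a batch with sva that was not named. Annotation and use of strand were not given in the sources used here. One column of the joint table (1 unmatched, total of 0) was not used.

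Groups came from the sample labels. Genes were filtered by filterByExpr (minimum count 10), scaled by TMM and tested with edgeR 4.0.16 in R 4.3.3 (glmQLFit, robust, 6 group means, 17 libraries, 11 residual degrees of freedom, biological coefficient of variation 45.1%), with Benjamini-Hochberg adjustment over 15272 genes. All adjusted p-values are from this test unless DESeq2 (1.42.0) is named. Calls by an alternative are given for some genes only, and other genes that edgeR did not call had them too. Fold bounds use a floor of 3 counts, which covers counting error only. No 2 of the 5 MHCII+CD11c+ libraries were repeats (lowest chi-square per degree of freedom 10.31). Libraries of the other subsets were not compared in this way. Scripts were tested on simulated counts. Coordinates are of GENCODE M21 on GRCm38, and 68.4% of tested genes had a RefSeq upstream window.

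Named are all called genes, the 10 lower genes and the 5 higher uncalled genes with the smallest p and no overlap, members of gene lists, and the 5 called genes with the smallest p of each difference of responses. Some genes that met this rule are not reported here. Members, lists and this rule were chosen with earlier results of these data known. Alternatives were other scalings, filters, thresholds and tests (DESeq2, and voom of limma 3.58.1 with sample weights), thinning, a replicate block, surrogate variables (sva 3.50.0) and leaving out each library.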

Additional observations from a re-analysis of the deposited data

Results flagged for a closer look

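In 5 genes the IC response differed between MHCII+CD11c+ and LYVE1+CX3CR1+ macrophages by a test of that difference (edgeR, adjusted over all genes). Differences are log2 values, the response of MHCII+CD11c+ minus that of LYVE1+CX3CR1+ macrophages. In each gene the values of LYVE1+CX3CR1+ macrophages, which fell or rose on their own, stand beside those of MHCII+CD11c+ macrophages, where none of the 5 genes was called.

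H2-Eb1, a chain of MHC class II, differed by 7.70 ± 0.79 (adjusted p = 3.47e-05). It had 5.30 ± 1.98 CPM in LYVE1+CX3CR1+ controls and 0 counts after IC (n = 3 each), against 3812 ± 931 CPM (n = 3) and 4008 ± 242 CPM (n = 2) in MHCII+CD11c+ macrophages. The fitted value rests on a group at 0 and is no bound.

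Slc37a2, a sugar phosphate transporter, differed by 3.0 ± 0.38 (adjusted p = 0.000359). It had 29.6 ± 12.5 CPM in MHCII+CD11c+ controls and 65.1 ± 8.28 CPM after IC, and 122 ± 16.7 and 33.4 ± 1.68 CPM in LYVE1+CX3CR1+ macrophages. Tgtp2, an interferon-inducible GTPase with a near copy, differed by 4.79 ± 0.76 (adjusted p = 0.00738), with 19.3 ± 5.28 and 35.6 ± 1.74 CPM in MHCII+CD11c+ and 6.86 ± 1.43 and 0.390 ± 0.676 CPM in LYVE1+CX3CR1+ macrophages. The last of these means is below the floor of 3 counts, and the fitted value is no bound.

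Map3k6, a stress kinase, differed by -2.46 ± 0.38 (adjusted p = 0.00547), with 81.4 ± 19.8 and 60.6 ± 5.98 CPM in MHCII+CD11c+ and 16.2 ± 0.467 and 66.4 ± 15.2 CPM in LYVE1+CX3CR1+ macrophages. Runx3, a transcription factor, differed by -4.71 ± 0.82 (adjusted p = 0.0230). It had 78.9 ± 10.2 and 87.6 ± 3.94 CPM in MHCII+CD11c+ and 0.192 ± 0.211 and 7.30 ± 6.23 CPM in LYVE1+CX3CR1+ macrophages, the former below the floor of 3 counts.

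Groups of 2 or 3 libraries are too small for a test of single libraries far from the rest.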

How the results depend on the processing

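The 33 calls of the main test fell to 0 with only the groups of the contrast in the fit and to 6 at an adjusted p under 0.01. They rose to 71 with DESeq2 and 98 with voom and sample weights. Leaving out 1 library gave 0 (without IC 1) to 104 (without control 2). Of the 33 genes, 33 remained with DESeq2, 27 with voom, 23 with DESeq2 size factors in edgeR, 23 with upper quartile scaling, 30 with no filter, 25 with a minimum count of 30, 19 with thinning and 20 with surrogate variables. Over 17 alternatives each, the 33 genes were on the same side of the threshold in 304 cases, lost the call in 257 and reversed in 0. The cause was not tested.

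The difference from MHCII+CD11c- macrophages had 0 calls, 2 with DESeq2, and 0 to 21 when 1 library was left out, with 21 without MHCII+CD11c+ control 2. The difference from LYVE1+CX3CR1+ macrophages had 5 calls, 13 with only these groups in the fit, 44 with DESeq2, 20 with no filter and 155 with surrogate variables. Leaving out 1 library gave 3 (without MHCII+CD11c+ IC 1) to 56 (without MHCII+CD11c+ control 2).

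With a replicate block, calls were 34 for IC against control (28 of the 33 remained), 0 for the first difference and 23 for the latter, or 35 with a replicate block within treatment. Libraries with the same number were taken to share only that number. Their deviations from group means correlated at -0.0719 for number 1 and -0.153 for number 2 between IC and control, and at 0.00129 to 0.286 between subsets. The 0.286 was that of control 2 between MHCII+CD11c+ and MHCII+CD11c- macrophages, and every other pair of subsets lay at or below 0.0986.

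Signs reversed in genes that were not called in the main comparison, of which Lyve1 was called without control 2. Left-out libraries gave Itgax -0.0881 (without IC 2) to 0.343 (without IC 1), H2-Ab1 -0.291 (control 2) to 0.0306 (control 1), H2-Eb1 -0.117 (control 2) to 0.203 (control 1), with -0.00945 without IC 2, Tnf -0.232 (IC 1) to 0.163 (IC 2), with 0.158 without control 2, Lyve1 -0.0949 (IC 1) to 2.99 (control 2) and Vsig4 -0.76 (IC 1) to 6.4 (control 2). Itgax was -0.00285 after thinning. H2-Eb1 was -0.0184 with DESeq2 size factors, -0.0133 with upper quartile scaling, -0.0183 with DESeq2 and -0.0199 after thinning. Tnf was 0.0407 with voom and 0.00918 with no filter.

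Without an IC library the lone other is assumed to vary like the other groups. The number of libraries, 2 after IC, and the smallest control total, 2549315 counts, limit the precision, and controls differed in transcripts of other cells.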

Other observations

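Lgals3bp, a secreted glycoprotein, and Tspan3, a tetraspanin, were among the 5 higher genes just outside the threshold, beside Per2 and Xaf1. Lgals3bp had 92.9, 76.9 and 62.0 CPM in controls and 297 and 204 CPM after IC (1.69 ± 0.35, adjusted p = 0.0715). Tspan3 had 61.5, 71.7 and 73.0 CPM in controls and 119 and 136 CPM after IC (0.89 ± 0.20, adjusted p = 0.0722). In both genes the IC and control libraries were apart.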
